A study of Mus musculus with 12 samples.

Results

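Left kidneys of Sprr2f knockout mice were compared with left kidneys of wild-type mice at day 5 of unilateral ureteral obstruction (UUO), a surgical model that stops urine leaving the kidney on the clamped side. The comparison took the 6 day 5 libraries, 3 per genotype, of the 12 libraries in the series, and tested all genes with enough reads, which were 18093 of 55471 gene identifiers. The other 6 libraries came from day 0 kidneys, 2 wild type and 4 knockout, and entered the same fit so that all groups shared an estimate of the spread. The stated purpose of the series was to find genes whose expression differs when Sprr2f is lost in obstructed kidney, and its title ties the gene to reactive oxygen species in female mice.

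Both genotypes were labelled C57/BL6, both had the ureter clamped, and both were harvested at the same time, so genotype was the labelled difference between them. The wild-type group carries no other allele in the labels, and the knockout group carries loss of Sprr2f, with neither the allele's construction nor the cells in which it acts described. The labels give an age of 8 to 12 weeks for the Sprr2f knockout mice and do not repeat it for the wild type. They do not say whether day 0 kidneys had a sham operation, whether the mice were littermates, or what the sex of each mouse was. The replicates are labelled only as separate samples, so a p-value measures spread among them, part of which may be technical.

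Sprr2f belongs to the small proline-rich proteins, short proteins that transglutaminases cross-link into the cornified envelope of stratified epithelia and that are also induced in stressed simple epithelia. Ureteral obstruction distends the tubules, and the proximal tubule, the segment that reabsorbs most of the filtered sodium, phosphate, glucose and amino acids with energy from mitochondrial fatty acid oxidation, loses transporters and enzymes while injured tubule cells express keratins and inflammatory signals. Neutrophils and macrophages enter the kidney, and fibroblasts deposit matrix.

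The libraries held 16567256 to 19398882 reads each. At day 5 the mitochondrial genome took between 3.89% and 4.34% of reads, and its share was higher in all 3 knockout libraries than in all 3 wild-type libraries. The libraries did not all match the female sex named in the title. Wild-type replicate 3 and knockout replicate 2 held 170 and 160 CPM (reads of a gene scaled to a common library total) of Y-linked transcripts and 0.672 and 2.11 CPM of Xist, the RNA that coats the inactive X chromosome of females. The other 4 day 5 libraries held at most 0.979 CPM of Y-linked transcripts and 619 to 893 CPM of Xist. These are called Y-linked and Xist libraries here, and the fold changes that the results turn on are also given for the 4 Xist libraries (2 and 2) and for the Y-linked pair (1 and 1, with no replicate). Pairs of libraries of the same pattern correlated at 0.987 to 0.992, and pairs of different pattern at 0.977 to 0.987, over log2 levels of all tested genes, whether or not the genotype was the same.

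**Figure D1:**
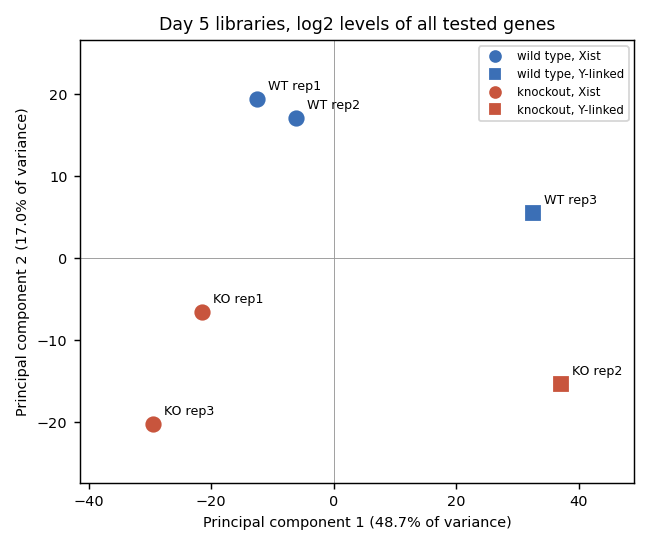
Principal components of the 6 day 5 libraries over log2 levels of 18093 tested genes (x axis, component 1; y axis, component 2; blue, wild type; red, knockout; circles, Xist libraries; squares, Y-linked libraries). Component 1 carried 48.7% of the variance and set the Y-linked libraries, at 32.6 and 37.1, apart from the other 4, and component 2 carried 17.0%, with wild type between 5.53 and 19.4 and knockout between -6.53 and -20.2.

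The targeted gene was the first check of the labels. Sprr2f (ENSMUSG00000050635, chr3:92365187-92366442, plus strand, in GRCm38.p6 with GENCODE M21 gene models) had 482, 447 and 1138 reads in wild-type replicates 1, 2 and 3. In knockout replicates 1, 2 and 3 it had 0, 39 and 76 reads, and a count of 0 allows up to 3 reads of 19398882. After scaling for library composition the levels were 22.8, 22.5 and 49.9 CPM in wild type against 0, 1.92 and 3.53 CPM in knockout. All knockout libraries lay below all wild-type libraries, and 2 of the 3 knockout libraries were not at 0. The labels do not say which part of the gene was deleted, so reads in knockout libraries cannot be placed inside or outside the deletion.

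Summed over the groups, wild type held 18.7 times the knockout level of Sprr2f (95% interval 15.5 to 22.8, counting error only). In the Xist libraries the ratio was 13.5 (10.7 to 17.3), and in the Y-linked pair it was 27.1 (19.7 to 38.3). On the log2(CPM + 0.5) scale the difference was -4.14 ± 0.59 (SE, n = 3 and 3), with an adjusted p of 0.152 by limma and of 0.0481 when the sex-chromosome pattern was a covariate. Permuting the 6 library values exactly (two-sided) gave p = 0.1, the smallest that 3 against 3 allows.

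The promoter of Sprr2f is shown because the gene is the one that the knockout targets. In RefSeq's GRCm38.p6 models the window from 250 bases before to 50 bases after its start lies at chr3:92364937-92365236 on the plus strand, and capitals mark matches to the letters searched:
Sprr2f promoter: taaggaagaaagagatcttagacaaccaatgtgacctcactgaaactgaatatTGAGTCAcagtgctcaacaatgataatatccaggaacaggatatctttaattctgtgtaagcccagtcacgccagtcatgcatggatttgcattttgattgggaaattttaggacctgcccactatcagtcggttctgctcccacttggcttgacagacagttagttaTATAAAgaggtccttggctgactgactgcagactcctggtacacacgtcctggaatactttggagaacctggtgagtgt
The window holds a TATA box (TATAAA) at position -29 and an AP-1 site (TGANTCA, where N is any base) at position -197, with positions counted from the start of the gene. Both strands were searched, and these letters are in 13.6% and 7.81% of 32851 promoter windows of this length. AP-1 is the Fos and Jun dimer that stress and growth signals activate. Of the list of 20 immediate early and AP-1 genes, Junb, a Jun family member, had the smallest p, with 209, 251 and 201 CPM in wild type and 138, 208 and 144 CPM in knockout. The highest knockout value of Junb lay above the lowest wild-type value, and the list's median log2 fold change was -0.09, with -0.34 in Xist libraries and 0.38 in the Y-linked pair.

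Of 16 Sprr genes, 5 had enough reads to be tested, and the other 4 gave smaller differences than Sprr2f or the opposite sign. Sprr1a, the most abundant, stood at 115, 144 and 182 CPM in wild type and 90.8, 119 and 100.2 CPM in knockout. Sprr2a3, which has near-identical copies among which reads may be split, stood at 5.53, 12.4 and 24.5 CPM against 5.16, 12.8 and 3.02 CPM. Sprr2g stood at 7.18, 13.5 and 11.4 CPM against 8.20, 19.6 and 6.78 CPM, a difference of -0.00 whose 95% interval ran from -0.74 to 0.73. The genotypes overlapped for each of these 3 genes. Sprr2h reads numbered 0, 2 and 1 in the wild-type libraries and 2, 60 and 11 in the knockout libraries, so 60 of the 73 knockout reads came from replicate 2. Its log2 fold change of 1.22 ± 0.45 had an adjusted p of 0.845 by limma.

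Across the genome no gene passed an adjusted p of 0.05 by limma, 0% in either direction, and the lowest adjusted p was 0.152, shared by Sprr2f, Slc25a15 and Itih4. At an unadjusted p under 0.05 there were 648 genes higher (3.58%) and 377 lower (2.08%) in knockout, and the libraries did not overlap for 1035 higher (5.72%) and 761 lower (4.21%). The median log2 fold change over all tested genes was 0.00, and 51.4% of them were above 0. Scaled by library size alone the unadjusted counts were 420 higher and 606 lower, and with upper-quartile factors 496 and 464, so the side with more genes depended on the scaling. Only 8 genes were over 2-fold higher and 45 over 2-fold lower.

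edgeR's quasi-likelihood test and limma-voom on the recovered reads also called 0 genes, with 670 higher and 360 lower at an unadjusted p under 0.05 by edgeR. DESeq2 called 49 higher (3.05%) and 2 lower (0.125%) of the 1604 genes to which it gave an adjusted p. Both genes it called lower were globins, Hbb-bs and Hba-a1. Sprr2f, Itih4, S100a8, S100a9, Cxcr2 and Isg15 were among the genes to which DESeq2 gave no adjusted p, so it could not call them. It kept only genes of high mean count over all 12 libraries, so genes low at day 0 more often had none. The 10 genes with the smallest p on the lower side, named below, all lacked one. The counts of 49 and 2 thus cannot be read as more genes higher than lower. With the sex-chromosome pattern as a covariate, limma called Slc25a15 and Ces1d, a carboxylesterase, higher (0.0111%) and Sprr2f lower (0.00553%), but the same covariate in a fit of the day 5 libraries alone, an alternative chosen after seeing the data, called 0 of 16979 genes, with 731 lower at an unadjusted p under 0.05. Without knockout replicate 2, a Y-linked library, limma called 15 higher (0.0833%) and 8 lower (0.0444%) of 18017 genes. That fit had no covariate and kept the Y-linked wild-type replicate 3, so genotype and sex-chromosome pattern were partly mixed in it. Leaving out knockout replicate 1 gave Sprr2f alone (0.00559% lower), and leaving out knockout replicate 3 gave Prss35, a serine protease-like protein, higher and Sprr2f lower (0.00558% each).

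Among the 14260 genes with a mean log2 level of at least 1, the nominal 95% interval of the fold change lay within 2-fold for 13423 (94.1%) and within 1.5-fold for 10428 (73.1%). The fold changes are on the log2(CPM + 0.5) scale, which understates the change of low genes and narrows their intervals. On simulated data these intervals held the known change less often than their nominal level.

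The 10 genes with the smallest p among those higher in knockout, taken from genes of moderate or high level whose libraries did not overlap, were 1.28 to 1.55-fold higher. Slc25a15 (chr8:22375551-22398597, minus strand), the mitochondrial ornithine carrier of the urea cycle, stood at 56.1, 57.4 and 52.2 CPM in wild type and 74.9, 73.9 and 86.5 CPM in knockout. Every knockout library was above every wild-type library by a margin wider than either group's range. Its log2 fold change was 0.50 ± 0.07 (adjusted p 0.152 by limma, 6.55e-07 by DESeq2), with 0.49 in Xist libraries and 0.50 in the Y-linked pair.

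Abcg2, an apical efflux pump that exports urate, stood at 111, 133 and 129 CPM in wild type and 169, 156 and 172 CPM in knockout. Thnsl2, a threonine synthase-like enzyme, stood at 46.1, 52.4 and 44.4 CPM against 76.0, 57.4 and 86.6 CPM, and Bdh2, a cytosolic dehydrogenase, at 81.3, 78.6 and 75.5 CPM against 95.7, 114 and 103 CPM. In Thnsl2 the lowest knockout library was the Y-linked one, whereas in Bdh2 that library was the highest. Slc1a1, the glutamate and aspartate transporter of the brush border, stood at 59.3, 69.6 and 64.9 CPM against 78.6, 83.9 and 98.4 CPM. Bphl, a serine hydrolase, stood at 79.6, 78.6 and 72.0 CPM against 100.5 CPM, 95.9 and 122 CPM. DESeq2 gave an adjusted p under 0.05 to each of these 5 genes and to Slc25a15, while limma's adjusted p for the 5 was 0.605. DESeq2 adjusted over 1604 genes and limma over 18093. Of the 20 genes with the smallest p in the 2 directions, only these 6 had an adjusted p by DESeq2. The others could not be called by it. The log2 fold changes were 0.41 for Abcg2, 0.60 for Thnsl2, 0.41 for Bdh2, 0.42 for Slc1a1 and 0.46 for Bphl. At day 0 the same contrast gave 0.24, 0.11, 0.31, 0.14 and 0.24 in this order.

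The remaining genes were Sugct, a glutarate CoA-transferase, Mrps6, a protein of the small mitochondrial ribosomal subunit, Nsdhl, an enzyme of cholesterol synthesis, and Ube2u, a ubiquitin-conjugating enzyme. Their log2 fold changes were 0.46 for Sugct, 0.36 for Mrps6, 0.42 for Nsdhl and 0.63 for Ube2u. At day 0 the same contrast gave 0.46 for Sugct, 0.04 for Mrps6, 0.15 for Nsdhl and 0.27 for Ube2u. The difference of Sugct was thus as large before obstruction. Mrps6 had the tightest knockout group, at 66.7, 65.5 and 65.1 CPM against 55.7, 51.2 and 47.4 CPM in wild type. Sugct overlaps Mplkip and Mrps6 overlaps Slc5a3 in the annotation, and the strand setting of the counting is not given in the sources used here, so reads could come from either gene of each pair.

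Among the 10 genes with the smallest p on the lower side, also taken from genes whose libraries did not overlap, Sprr2f and Itih4 had the widest differences. Itih4 (chr14:30886476-30902353, plus strand), a heavy chain of the inter-alpha-trypsin inhibitor family and an acute-phase protein, stood at 17.9, 22.8 and 13.0 CPM in wild type. In knockout it stood at 3.53, 4.68 and 2.14 CPM. The lowest wild-type library was thus well above the highest knockout library, and both of these were the Y-linked ones. The log2 fold change was -2.24 ± 0.35 (adjusted p 0.152 by limma), with -2.70 in Xist libraries and -1.38 in the Y-linked pair. With 1 CPM added in place of 0.5, limma called Itih4 and Sprr2f lower (0.0111%).

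Unc5b, a netrin receptor, stood at 43.9, 39.9 and 46.0 CPM in wild type and 30.9, 30.7 and 33.4 CPM in knockout. Jag2, a Notch ligand, stood at 14.98, 19.5 and 17.97 CPM against 11.6, 12.1 and 12.8 CPM, and Itga3, the alpha chain of a laminin receptor, at 161, 178 and 149 CPM against 132, 135 and 118 CPM. Gja4, the connexin of arterial endothelium, stood at 9.22, 8.57 and 8.76 CPM against 5.599, 6.11 and 4.83 CPM. Separate groups were a condition for choosing these 4 genes, and limma's adjusted p was 0.605 for all of them. Their log2 fold changes were -0.44 for Unc5b, -0.50 for Jag2, -0.34 for Itga3 and -0.64 for Gja4. At day 0 the same contrast gave -0.14, -0.39, -0.17 and -0.06 in this order.

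Vgf, a secreted neuropeptide precursor, stood at 4.44, 9.57 and 6.13 CPM against 2.60, 2.96 and 2.37 CPM. Rab44, a large Rab GTPase of immune cells, stood at 2.74, 4.03 and 4.56 CPM against 1.54, 1.53 and 1.44 CPM. Both had a knockout group that was much tighter than the wild-type group. Cxcr2, the neutrophil chemokine receptor, and Il1r2, the interleukin 1 decoy receptor, are described with the neutrophil genes.

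**Figure D2:**
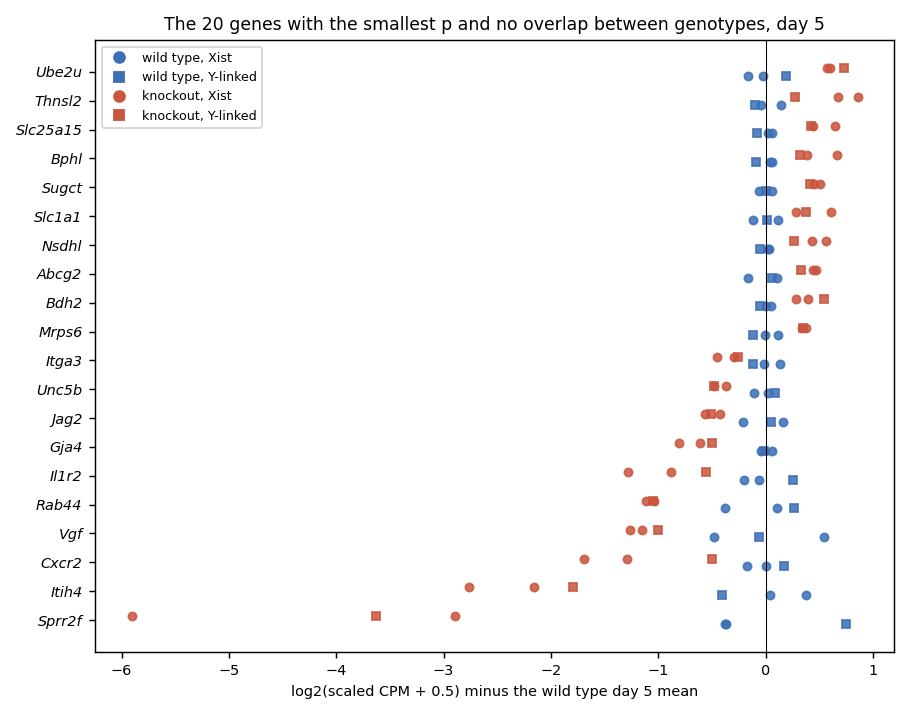
Level of the 20 genes with the smallest p and no overlap between genotypes in each day 5 library, as log2(scaled CPM + 0.5) minus the mean of the 3 wild-type libraries (x axis); blue, wild type; red, knockout; circles, Xist libraries; squares, Y-linked libraries. The 10 higher genes lie within 1 log2 unit of the wild-type mean, and Sprr2f and Itih4 lie farthest below it, at fold changes of -4.14 and -2.24.

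To describe known processes, 761 genes were grouped in 37 lists, of which 722 genes were tested. In bulk kidney RNA, fewer cells of a type and less RNA per cell cannot be told apart. A list is described below by its median log2 fold change, set against 0.00 for all tested genes. The number of members with an unadjusted p under 0.05 is set against 3.58% higher and 2.08% lower. The number without overlap is set against 5.72% higher and 4.21% lower. No list has a test of its own. The list medians were above 0 in 15 lists and below 0 in 22.

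**Figure D3:**
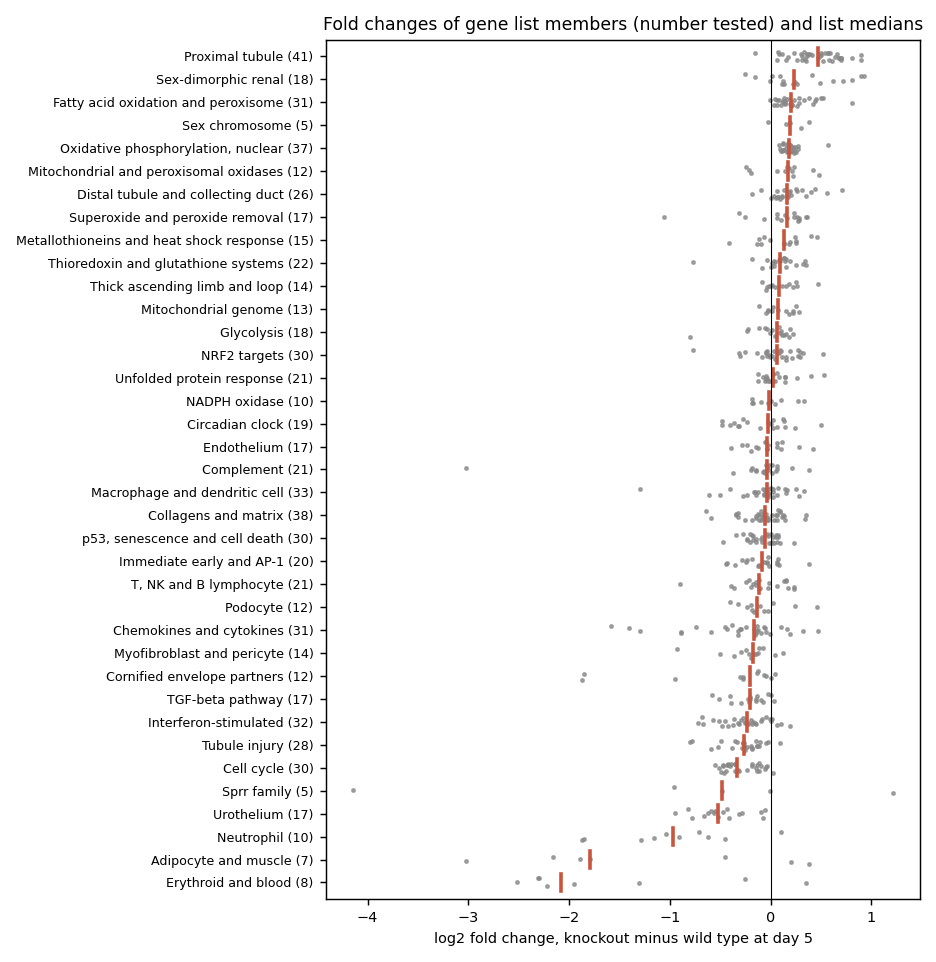
Log2 fold change of knockout over wild type at day 5 (x axis) for each tested member (grey points) of the 37 lists (y axis, number tested in brackets), with the list median as a red bar. Proximal tubule genes lie farthest to the right, with a median of 0.47, and erythroid, adipocyte and neutrophil genes lie farthest to the left, with medians of -2.08, -1.79 and -0.97.

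Proximal tubule genes were the list with the highest median. Of 41 tested members 40 had a fold change above 0, 15 had an unadjusted p under 0.05 on the higher side and 0 on the lower, and 11 did not overlap. The median was 0.47, with 0.53 in Xist libraries and 0.21 in the Y-linked pair, where 35 of 41 were above 0. By limma 0 members passed an adjusted p of 0.05, and DESeq2 called 3 of them higher, which were G6pc, Hnf4a and Slc34a1. DESeq2 gave an adjusted p only to genes of high mean count over all 12 libraries, day 0 included.

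Slc2a2, the basolateral glucose transporter GLUT2, had the smallest p of the list. Its levels were 41.2, 51.6 and 35.5 CPM in wild type and 64.0, 63.9 and 77.4 CPM in knockout, so the groups were separate. The log2 fold change was 0.68 ± 0.15 (adjusted p 0.605 by limma), with 0.59 in Xist libraries and 0.84 in the Y-linked pair. Slc22a6, the organic anion transporter OAT1, stood at 84.1, 96.1 and 150.2 CPM in wild type and 165, 189 and 166 CPM in knockout, again with no overlap. Enzymes of glucose synthesis lay on the same side, with log2 fold changes of 0.81 for G6pc, 0.64 for Pck1 and 0.54 for Fbp1. The 95% interval of each of these enzymes reached beyond 2-fold. Fbp1 stood at 192, 224 and 157 CPM against 315, 178 and 368 CPM, so its genotypes overlapped. Hnf4a, the nuclear receptor that maintains proximal tubule identity, was at 0.39.

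Slc34a1, the sodium phosphate cotransporter, stood at 919.5, 1089 and 777 CPM in wild type and 1446, 975.1 and 1962 CPM in knockout. Slc5a2, the glucose cotransporter SGLT2, stood at 87.4, 92.4 and 44.0 CPM against 129, 53.6 and 170.0 CPM, and Lrp2, the endocytic receptor megalin, at 499, 704 and 349 CPM against 1002 CPM, 369 and 876 CPM. In these 3 genes the Y-linked library was the lowest of its genotype, and the Y-linked knockout library overlapped the wild-type range. The wild-type Y-linked library lay below the knockout Y-linked library in each of them.

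Summed over the list without Kap, an androgen-responsive kidney transcript that alone reached 8813 CPM, the level was 10996, 11878 and 10144 CPM in wild type. In knockout it was 15886, 11869 and 17336 CPM. Knockout replicate 2 thus lay within the wild-type range and the other 2 lay above it.

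**Figure D4:**
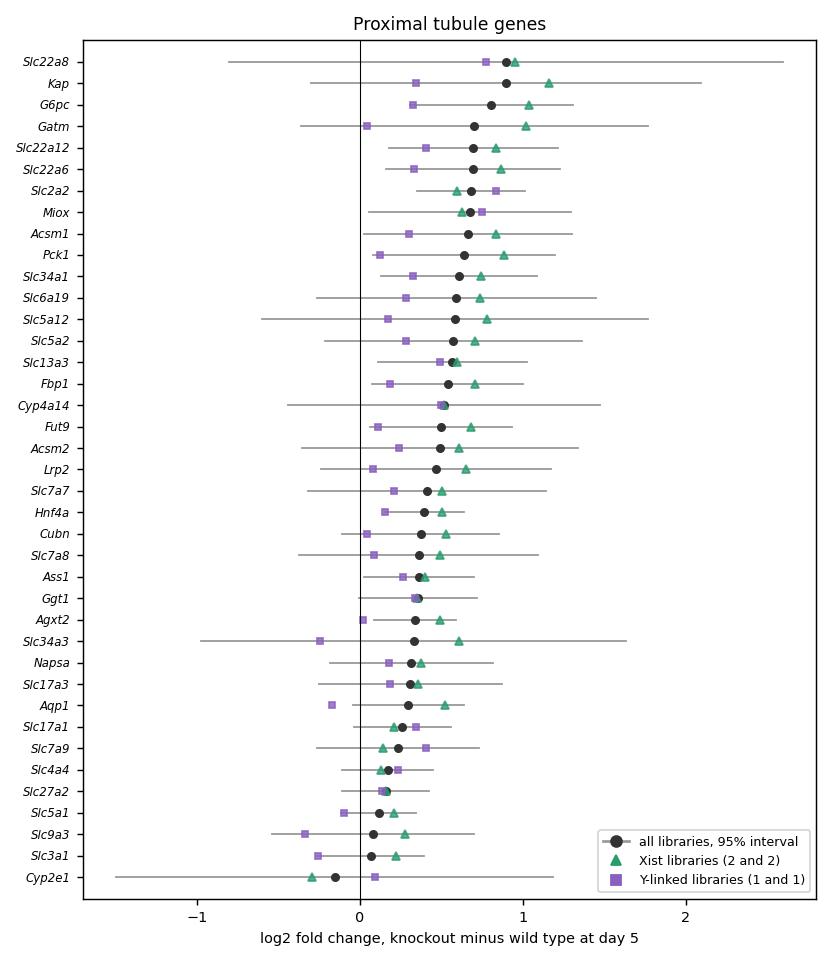
Log2 fold change (x axis) of 39 of the 41 proximal tubule genes (y axis) in all libraries (black, with its 95% interval from limma), in the Xist libraries (green triangles) and in the Y-linked pair (purple squares, no replicate). For 33 of the 39 genes plotted all 3 values are above 0, and the Y-linked pair mostly lies closer to 0 than the Xist libraries.

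The promoter of Slc34a1 is shown because it carries a match for the half-site of Hnf4a, the factor named above. The RefSeq GRCm38.p6 window lies at chr13:55399398-55399697 on the plus strand, with matches in capitals:
Slc34a1 promoter: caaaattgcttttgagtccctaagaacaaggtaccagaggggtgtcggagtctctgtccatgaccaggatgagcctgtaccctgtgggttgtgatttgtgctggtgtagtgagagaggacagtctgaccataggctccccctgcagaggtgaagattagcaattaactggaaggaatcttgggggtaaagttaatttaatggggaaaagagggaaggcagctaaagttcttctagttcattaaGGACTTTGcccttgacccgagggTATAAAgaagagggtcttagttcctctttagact
An HNF4 half-site (CAAAGTCC, or GGACTTTG on the other strand) begins at -7 and TATAAA at 17. The HNF4 letters are in 5 of 47 promoter windows of proximal tubule genes (10.6%) and in 1.42% of all windows. A match describes the letters only.

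Other nephron segments lay closer to 0. Of 14 thick ascending limb genes 9 were above 0, with a median of 0.08, which was 0.21 in Xist libraries and -0.12 in the Y-linked pair. Cldn10, a claudin of paracellular sodium transport, stood at 69.5, 75.6 and 68.4 CPM in wild type and 104, 69.4 and 133 CPM in knockout. Umod, which encodes uromodulin, stood at 1379.7, 1576 and 1466 CPM against 1668, 862 and 2002 CPM. In both genes knockout replicate 2 was the lowest knockout library and the other 2 were above wild type. Of 26 distal tubule and collecting duct genes 24 were above 0, with a median of 0.16 that was -0.02 without wild-type replicate 3. Aqp4, the basolateral water channel of principal cells, stood at 15.3, 17.9 and 17.8 CPM against 39.7, 25.9 and 21.4 CPM, with no overlap. Podocyte and endothelial lists lay near 0, with medians of -0.13 and -0.03.

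Nuclear genes of oxidative phosphorylation, the respiratory chain and ATP synthase, showed small differences that pointed one way. All 37 tested members were above 0, 16 had an unadjusted p under 0.05, and 22 did not overlap. The median was 0.18, with 0.16 in Xist libraries and 0.20 in the Y-linked pair. Each of the 37 had its 95% interval within 2-fold, and limma and DESeq2 called 0 of them. At day 0 the list's median was 0.13, and 0.16 with the sex-chromosome pattern as a covariate. A difference of nearly this size was thus there before obstruction.

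Sdhb, the iron-sulfur subunit of complex II, stood at 141, 146 and 144 CPM in wild type and 169, 162 and 189 CPM in knockout. Uqcrfs1, the Rieske protein of complex III, stood at 179, 193 and 173 CPM against 211, 199.5 and 208 CPM, and Cox4i1 of complex IV at 443, 436 and 424 CPM against 454, 503 and 514 CPM. The genotypes were separate in each of these 3 genes. Ndufs1 of complex I, at 80.5, 95.6 and 80.0 CPM against 101, 85.4 and 102 CPM, overlapped through knockout replicate 2, as did Atp5a1 of the ATP synthase. Atp5o had the smallest p of the list with a log2 fold change of 0.57, but 2 identifiers share this symbol and overlap, so its reads are uncertain. Transcripts of the mitochondrial genome had a median of 0.07, and 5 of 13 did not overlap on the higher side.

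Fatty acid oxidation and peroxisome genes lay on the same side, with 30 of 31 above 0, 6 at an unadjusted p under 0.05 and 8 that did not overlap. Their median was 0.20, with 0.18 in Xist libraries and 0.22 in the Y-linked pair. Cpt1a, which controls fatty acid entry into mitochondria, stood at 224, 191 and 232 CPM against 226, 239.7 and 271 CPM. Acadm, the medium-chain acyl-CoA dehydrogenase, stood at 276, 342 and 306 CPM against 538, 311 and 381 CPM. The genotypes overlapped in both. Hadh, at 0.26, and the PPAR-alpha target Ehhadh, at 0.42, had unadjusted p under 0.05. Glycolytic genes had a median of 0.06, with 3 of 18 without overlap on the higher side and 1 on the lower. That one, Hk2, the hexokinase of growing and injured cells, stood at 20.7, 19.4 and 17.97 CPM against 9.30, 15.5 and 8.92 CPM, with no overlap.

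Genes that make or remove reactive oxygen species bear on the series title. Of 10 tested NADPH oxidase genes, which encode the enzyme complexes that produce superoxide, 0 had an unadjusted p under 0.05 and 0 were without overlap. Their median was -0.01, with -0.18 in Xist libraries and 0.10 in the Y-linked pair, and 9 of 10 had the 95% interval within 2-fold, among them Duox1, which stood at or below 0.690 CPM in all 6 libraries. Nox4, the renal tubule isoform, stood at 88.4, 112 and 54.0 CPM in wild type and 149, 56.8 and 127 CPM in knockout. Its interval, -0.49 to 1.15, was the exception. Cybb, the phagocyte subunit NOX2, stood at 49.1, 35.8 and 41.3 CPM against 35.6, 35.8 and 38.7 CPM, and Cyba, its partner p22phox, at 357, 368 and 434 CPM against 335, 572 and 365 CPM. No NADPH oxidase gene separated the genotypes.

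Genes that remove superoxide and peroxide were mostly on the higher side, with 13 of 17 above 0, 5 at an unadjusted p under 0.05 higher and 1 lower, and a median of 0.16. The median was 0.06 in Xist libraries and 0.20 in the Y-linked pair. At day 0 the list's median was 0.18, and 0.17 with the sex-chromosome pattern as a covariate, so a difference of this size was there before obstruction. The log2 differences at day 0 were 0.43 for Sod1, 0.12 for Sod2 and 0.18 for Cat, against 0.36, 0.27 and 0.26 at day 5. Sod2, the mitochondrial superoxide dismutase, stood at 133, 146 and 129 CPM in wild type and 168, 150.4 and 172 CPM in knockout. Sod1, its cytosolic counterpart, stood at 285, 269 and 265 CPM against 337, 354 and 358 CPM, and Cat, the peroxisomal catalase, at 231, 241 and 237 CPM against 275, 265 and 310.2 CPM. The genotypes were separate in all 3, and limma's adjusted p was 0.767 for Sod2 and for Sod1 and 0.828 for Cat. DESeq2's adjusted p was 0.0459 for Sod2, 0.071 for Sod1 and 0.0758 for Cat. Gpx2, an epithelial glutathione peroxidase, lay on the other side at -1.06.

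Mitochondrial and peroxisomal oxidases produce peroxide as a by-product. Of the 12 genes in their list 9 were above 0, 3 had an unadjusted p under 0.05 on the higher side and 1 on the lower. The lower one, Shc1, is not an oxidase but an adaptor protein with a mitochondrial form. It stood at 113, 99.7 and 116 CPM in wild type and 96.7, 94.3 and 94.1 CPM in knockout, with no overlap. Dao, the D-amino acid oxidase of proximal tubule peroxisomes, stood at 122, 127 and 113 CPM against 162, 141 and 186 CPM, with no overlap. Of 22 thioredoxin and glutathione genes 18 were above 0, with a median of 0.09. Msra, which repairs oxidised methionine, stood at 110.4, 119 and 116 CPM against 134, 149 and 148 CPM.

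Targets of NRF2, the transcription factor of the antioxidant response, had a median of 0.06, with 18 of 30 above 0. Nqo1, a quinone reductase, stood at 20.9, 19.9 and 26.1 CPM against 23.2, 28.2 and 30.6 CPM. Hmox1, heme oxygenase 1, stood at 47.8, 46.3 and 59.6 CPM against 33.5, 116 and 41.8 CPM, and Slc7a11, the cystine transporter, at 0.898, 2.22 and 5.61 CPM against 0.705, 2.12 and 0.975 CPM. The genotypes overlapped in these 3 genes, and for Hmox1 the Y-linked knockout library was the highest of the 6.

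**Figure D5:**
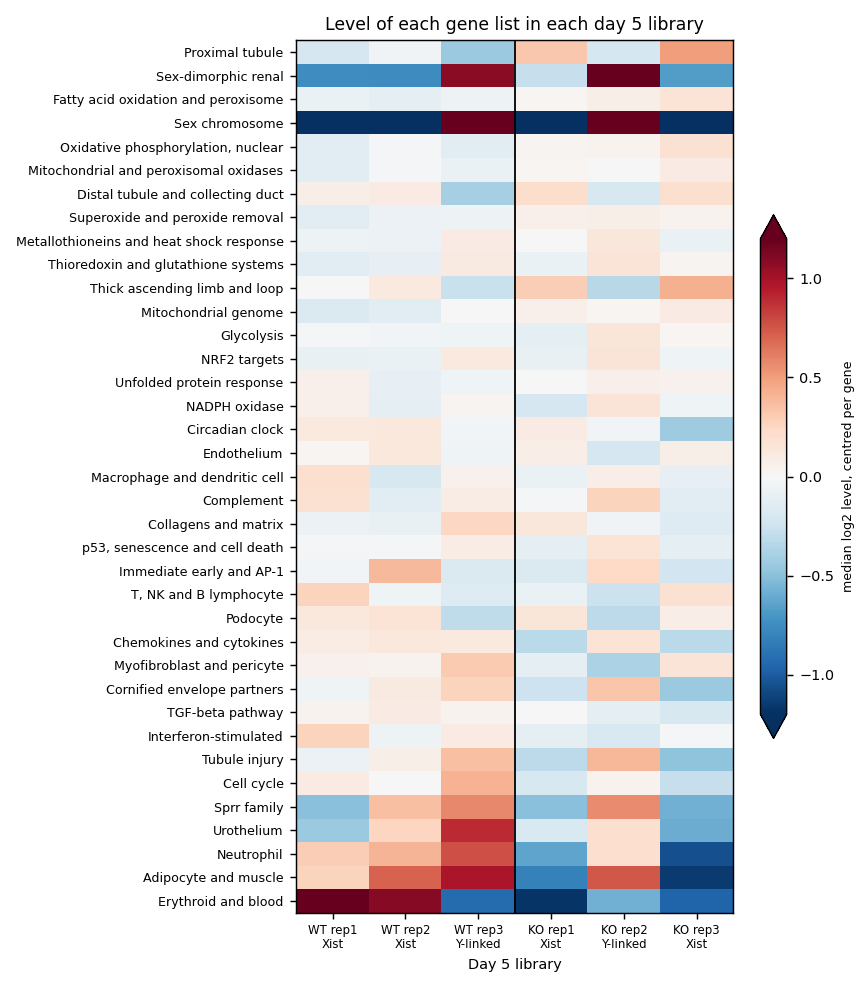
Level of each of the 37 lists (y axis) in each day 5 library (x axis), as the median over members of the log2 level minus the gene's mean over the 6 libraries (colour; red, above the mean; blue, below). Neutrophil genes stand at 0.29, 0.41 and 0.78 in wild type and -0.64, 0.21 and -1.06 in knockout, and the chromosome and sex-dimorphic lists follow the Y-linked libraries.

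Neutrophil genes were on the lower side. Of 10 tested members 7 had an unadjusted p under 0.05 on the lower side and 0 on the higher, 5 did not overlap, and 1 was above 0. The median was -0.97, with -1.22 in Xist libraries and -0.75 in the Y-linked pair. The summed level of the 15 listed genes was 62.8, 63.1 and 94.9 CPM in wild type and 26.9, 57.3 and 17.5 CPM in knockout. Every knockout library was below every wild-type library, and knockout replicate 2 was close to the lowest of them. By limma 0 members passed an adjusted p of 0.05.

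S100a8 and S100a9, the subunits of calprotectin, stored in neutrophil cytoplasm, were the most abundant of the list. S100a8 stood at 12.9, 13.7 and 25.2 CPM in wild type and 4.06, 10.6 and 1.44 CPM in knockout, with no overlap, and its log2 fold change was -1.87 ± 0.51 (adjusted p 0.656 by limma). S100a9 stood at 15.3, 19.1 and 33.2 CPM against 5.38, 16.5 and 1.72 CPM and overlapped through knockout replicate 2. Cxcr2 stood at 2.79, 3.22 and 3.68 CPM against 1.01, 2.12 and 0.650 CPM. Il1r2 stood at 2.93, 3.28 and 4.21 CPM against 1.63, 2.17 and 1.11 CPM. Both receptors were without overlap, which was a condition for naming them with the lower genes above. Without knockout replicate 2 limma called S100a8, S100a9 and Cxcr2 lower, at log2 fold changes of -2.51, -2.60 and -1.49. That fit kept the Y-linked wild-type replicate 3 but no Y-linked knockout library at day 5, so genotype and sex-chromosome pattern were partly mixed in it. In the Xist libraries alone the log2 fold changes were -2.24, -2.31 and -1.45, which are sizes of difference and not calls.

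Erythroid genes, which mark blood in the tissue, were also lower in the Xist knockout libraries. The 8 erythroid genes, among them the globins Hba-a1, Hba-a2, Hbb-bs and Hbb-bt, which share near-identical sequence, summed to 3995, 1125 and 283 CPM in wild type. In knockout they summed to 238, 329 and 235 CPM. Of the 8 genes 6 had an unadjusted p under 0.05 on the lower side, and the median was -2.08, with -3.29 in Xist libraries and 0.23 in the Y-linked pair. Wild-type replicate 3 had the highest neutrophil sum and the lowest erythroid sum of its genotype. Adipocyte and muscle genes, 7 tested of 12, summed to 173, 275 and 307 CPM in wild type and 120, 254 and 76.9 CPM in knockout, where Adipoq, the fat cell hormone, was at 6.85, 10.6 and 12.7 CPM against 1.28, 11.9 and 0.0464 CPM. The part of blood and fat in the neutrophil result was not tested.

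Macrophage and dendritic cell genes did not separate the genotypes. Of 33 tested members 0 had an unadjusted p under 0.05, and the median was -0.04, with -0.14 in Xist libraries and 0.11 in the Y-linked pair. Adgre1, which encodes F4/80, stood at 42.3, 28.5 and 31.8 CPM in wild type and 39.7, 34.5 and 38.7 CPM in knockout, and Cd68 at 30.8, 27.4 and 33.7 CPM against 27.3, 43.1 and 28.1 CPM. Of 21 lymphocyte genes 0 had an unadjusted p under 0.05, and Cd3e, a chain of the T cell receptor complex, stood at or below 2.32 CPM in all 6 libraries. Complement genes had a median of -0.04.

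Chemokines and cytokines were mostly on the lower side, with 5 of 31 above 0, 4 at an unadjusted p under 0.05 lower and 4 that did not overlap. The median was -0.17, but it was -0.52 in Xist libraries and 0.16 in the Y-linked pair. Il11, a fibrogenic cytokine, stood at 16.6, 5.19 and 2.67 CPM in wild type and 2.42, 1.72 and 2.04 CPM in knockout. Il6 stood at 2.98, 2.42 and 1.01 CPM against 0.309, 1.23 and 0.232 CPM. Il11 separated the genotypes and Il6 did not. The monocyte chemokine Ccl2 stood at 27.1, 38.4 and 32.6 CPM against 27.6, 57.4 and 17.3 CPM, with the highest and the lowest of the 6 values both in knockout.

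Interferon-stimulated genes were lower by a small amount in most members. Of 32 tested members 4 were above 0, 8 had an unadjusted p under 0.05 on the lower side and 0 on the higher, and 12 did not overlap. The median was -0.24, with -0.19 in Xist libraries and -0.32 in the Y-linked pair. Isg15, a ubiquitin-like modifier, stood at 30.6, 18.4 and 20.02 CPM in wild type and 15.03, 10.2 and 15.5 CPM in knockout, with no overlap. Its log2 fold change was -0.73 ± 0.20 (adjusted p 0.656 by limma). Irf7, the transcription factor that amplifies type I interferon, stood at 66.1, 47.7 and 57.9 CPM against 46.0, 45.1 and 45.8 CPM, also with no overlap. Others at an unadjusted p under 0.05 were the RNA-binding Ifit2 and Ifit3, at -0.45 and -0.38, and the GTPases Iigp1 and Gbp2, at -0.69 and -0.67. Oas2, an oligoadenylate synthetase, was at -0.00. The core letters of the interferon response element, GAAA, any 2 bases and GAAA on either strand, are in 16 of 29 promoter windows of this list (55.2%) and in 3.44% of all windows.

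Genes of injured and of stratified epithelium lay below 0, with wide spread between libraries. Of 28 tubule injury genes 1 was above 0, 3 had an unadjusted p under 0.05 on the lower side and 1 did not overlap. Their median was -0.26, but it was -0.45 in Xist libraries and 0.12 in the Y-linked pair. Havcr1, which encodes the injury marker KIM-1, stood at 703, 623 and 1195 CPM in wild type and 394, 1355 and 332 CPM in knockout. Lcn2, the injury marker NGAL, stood at 536, 347 and 476 CPM against 355, 523 and 276 CPM, and Krt20 at 184, 127 and 259 CPM against 71.1, 249.6 and 64.7 CPM. In these 3 genes the Y-linked knockout library was the highest of its genotype and lay within or above the wild-type range, so the genotypes overlapped. Krt18, a keratin of simple epithelium, stood at 128, 154 and 169 CPM against 109, 135 and 80.2 CPM. The secreted phosphoprotein Spp1 stood at 17074, 14360.1 and 12512 CPM against 13076, 14084 and 11116 CPM.

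All 17 tested urothelial genes, which mark the lining of the renal pelvis, were below 0, with a median of -0.52 (-0.42 over the 16 tested in Xist libraries, -0.89 in the Y-linked pair), yet 1 had an unadjusted p under 0.05. Krt5, the basal cell keratin, stood at 16.0, 41.9 and 81.8 CPM in wild type and 18.1, 43.9 and 9.06 CPM in knockout, and the uroplakin Upk1b at 10.02, 21.8 and 42.5 CPM against 16.3, 20.5 and 8.64 CPM. The genotypes overlapped in both, with a range over 4-fold inside each group for Krt5. Of 12 partners of the Sprr proteins in the cornified envelope 1 was above 0, with a median of -0.21, and 2 of the 3 with an unadjusted p under 0.05 were S100a8 and S100a9. Ivl, the envelope protein involucrin, stood at 6.47, 16.4 and 26.9 CPM against 7.67, 10.3 and 4.55 CPM. Tgm1, the transglutaminase that cross-links the envelope, stood at 45.0, 38.3 and 48.7 CPM against 36.9, 65.6 and 26.4 CPM.

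Of 38 collagen and matrix genes 14 were above 0, 2 had an unadjusted p under 0.05 on the lower side and 2 did not overlap, with a median of -0.06. The median was 0.09 in Xist libraries and -0.34 in the Y-linked pair. The 2 without overlap were Mmp14, a membrane-bound matrix protease, at 158, 152 and 201 CPM in wild type and 141, 129.9 and 127 CPM in knockout, and Tnc, tenascin C, at 77.9, 84.8 and 95.1 CPM against 73.1, 65.1 and 67.5 CPM. Col1a1 stood at 618, 853 and 1301 CPM in wild type and 815, 1210.1 and 508 CPM in knockout, and Fn1, fibronectin, at 419, 398 and 499.9 CPM against 450.3, 457 and 463 CPM, and both overlapped. Acta2, the myofibroblast actin, stood at 150.1, 209 and 274 CPM against 187, 139 and 213 CPM. TGF-beta pathway genes had a median of -0.21 with 2 of 17 above 0. Tgfb1 stood at 87.8, 69.8 and 86.2 CPM against 64.9, 75.1 and 59.0 CPM.

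Cell cycle genes were lower in 29 of 30 members, but none had an unadjusted p under 0.05 and 7 did not overlap. The median was -0.34, with -0.27 in Xist libraries and -0.39 in the Y-linked pair. Mki67, the proliferation antigen Ki-67, stood at 50.4, 43.2 and 59.3 CPM in wild type and 38.1, 40.4 and 36.5 CPM in knockout, so all knockout libraries were below wild type. Top2a stood at 38.6, 32.5 and 45.4 CPM against 30.8, 32.2 and 27.3 CPM, with the groups separate by a narrow margin. The 30 p53, senescence and cell death genes had a median of -0.06, and the unfolded protein response genes 0.02.

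Sex-dimorphic kidney genes followed the sex-chromosome pattern more than genotype. The centred level of their list was 1.08 and 1.69 in the Y-linked libraries and at most -0.28 in the other 4. Within a pattern the list still lay on the higher side in knockout. Of 18 tested members 15 were above 0 and 0 had an unadjusted p under 0.05. The median was 0.23, with 0.47 in Xist libraries and 0.23 in the Y-linked pair. Slco1a1, an organic anion transporter of males, stood at 34.7 and 55.2 CPM in the Y-linked libraries and at most 0.441 CPM in the other 4, and Prlr, a female-biased receptor, stood at 12.4 and 4.43 CPM against at least 54.5 CPM. Kap was high in both Y-linked libraries, at 6949 and 8813 CPM, and also in knockout replicates 1 and 3, at 5378 and 3569.8 CPM, against 1487 and 2537 CPM in wild-type replicates 1 and 2.

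The day 0 libraries give the same contrast before obstruction, in 2 wild-type and 4 knockout kidneys, of which 1 wild-type and all 4 knockout libraries were Y-linked. They share no sample with the day 5 contrast. The medians at day 0 were -0.08 for proximal tubule genes, 0.13 for nuclear oxidative phosphorylation genes, -0.22 for neutrophil genes and -0.11 for interferon-stimulated genes. With the sex-chromosome pattern as a covariate they were 0.22, 0.16, -0.44 and -0.03 in the same order, so the side of the proximal tubule genes turned. Whether these differ from day 5 as lists was not tested. The difference between the contrasts passed an adjusted p of 0.05 by limma for 1 gene (0.00553%), Noct, the circadian deadenylase nocturnin, which was level at day 5. The call was lost when any 1 of 9 of the 12 libraries was left out. Its day 5 values were 22.9, 35.3 and 21.8 CPM in wild type and 26.7, 23.7 and 32.6 CPM in knockout, a log2 fold change of 0.07 with an interval from -0.33 to 0.48.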

How the data were processed

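Total RNA of left kidneys was sequenced as 50-base reads in 12 libraries. The authors deposited CPM values per gene, in 1 table with a column for each library. Per the submitters' processing notes STAR, SAMtools and HTSeq were used with GRCm38.p6, with versions, strand setting and annotation not given in the sources used here. Every one of the 665652 CPM values was 0 or a whole multiple of the value of 1 read (100% within 0.001), so the read counts were recovered.

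Genes were kept with edgeR 4.0.16 (at least 10 reads in enough libraries and 15 in total), which left 18093 genes with 99.9% of reads. CPM were divided by TMM factors (1.13 to 1.19 at day 5), 0.5 was added, and log2 values were fitted with limma 3.58.1 (trended empirical Bayes) in 4 groups of 12 libraries. Calls used a Benjamini-Hochberg adjusted p of 0.05 over all tested genes. On the recovered reads, edgeR's quasi-likelihood test called 0 genes. DESeq2 1.42.0, limma-voom, other scalings, added constants, filters, library subsets and a sex-chromosome covariate were alternatives, and the methods were tested on simulated data. Gene identifiers were matched to GENCODE M21 for positions and to RefSeq for promoters.

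Genes named are the tested Sprr genes, genes called for genotype at day 5 or its interaction with day, the 10 with the smallest p in each direction (mean log2 level of at least 1, not predicted models, libraries without overlap), the member with the smallest p of each list, and marker genes of each list given by level. Other genes named by value were chosen after their values were seen. The comparison, the lists and the named markers were chosen with earlier results of these data known. Some genes counted in the lists are not reported here by name.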

Additional observations from a re-analysis of the deposited data

Results flagged for a closer look

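Noct was the 1 gene whose genotype difference changed between day 0 and day 5 past an adjusted p of 0.05 (limma interaction, 2.26 ± 0.27 on the log2 scale, adjusted p = 0.0356). At day 0 it stood at 59.0 and 81.3 CPM in wild type and at 12.9, 14.1, 16.0 and 16.3 CPM in knockout, a log2 difference of -2.19, and at day 5 the difference was 0.07. The call was lost when any 1 of 9 of the 12 libraries was left out, with adjusted p from 0.0046 to 0.171 over the 12 runs, and it held without wild-type day 5 replicate 2, knockout day 5 replicate 2 or wild-type day 0 replicate 1. It was also lost by library size alone (adjusted p = 0.062) and with no filter (0.0987), and it held with a covariate for the sex-chromosome pattern (0.00662). The day 0 knockout libraries were all Y-linked, and the day 0 wild-type group has 2 libraries.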

How the results depend on the processing

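The genotype contrast at day 5 depended most on the tool and on knockout replicate 2. Calls higher and lower were 0 and 0 in the main analysis and 49 and 2 by DESeq2, which gave an adjusted p to 1604 genes only. They were 2 and 1 with the sex-chromosome covariate, and 0 and 2 with 1 CPM added. Leaving out 1 library at a time gave 0 to 15 higher and 0 to 8 lower, with both maxima without knockout replicate 2. At an unadjusted p under 0.05, where the main counts were 648 and 377, the counts were 420 and 606 by library size alone, 989 higher with the covariate, 868 lower with no filter and 689 lower in Xist libraries. A day 5 fit with the covariate, chosen after seeing the data, gave 731 lower. Leaving out 1 library gave 384 to 1158 higher and 275 to 816 lower, with the lowest count of higher genes without knockout replicate 3 and both highest counts without knockout replicate 2. With no filter 31841 intervals lay within 2-fold and 24801 within 1.5-fold, against 16679 and 11079, where the added genes have few reads and the 0.5 CPM added keeps their intervals narrow by construction.

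The interaction with day, 1 higher and 0 lower, gave 35 and 12 by DESeq2, 3 higher with the covariate, and 0 higher by library size alone and with no filter. Leaving out 1 library gave 0 to 43 higher and 0 to 64 lower, both maxima without wild-type day 0 replicate 1. The fold change of Sprr2f was past the threshold at -3.69 with 1 CPM added and at -4.14 with the covariate, and ran from -4.76 to -3.26 when 1 library was left out.

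Signs turned for 3 of the 60 genes given a fold change, all near 0 or unequal within groups. Sprr2g turned to 0.11 by edgeR, 0.000607 with RLE factors and 0.00152 with 1 CPM added, and ran from -0.45 to 0.28 when 1 library was left out. Noct at day 5 ran from -0.055 to 0.29 and Y-linked Eif2s3y from -1.73 to 2.60. Of 37 list medians 22 kept their sign in all 26 settings, among them proximal tubule (0.29 to 0.68), nuclear oxidative phosphorylation (0.14 to 0.23), neutrophil (-1.41 to -0.70) and interferon (-0.31 to -0.16) genes. The cause of these changes was not tested. No paired analysis was possible because the labels give no replicate numbers that the genotypes share. With 3 libraries per genotype, the 95% interval of a log2 fold change reached 0.36 to either side in the median gene.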
